A study of Mus musculus with 16 samples.

Results

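A set of 10 mouse genes of iron handling and of red pulp macrophages was followed through 4 sorted cell groups: Slc40a1, Hmox1, Fth1, Ftl1, Tfrc, Slc11a1, Slc11a2, Spic, Vcam1 and Ireb2. They were taken by symbol from a table of 50600 genes. All 10 members had a row, and all 10 were among the 16345 genes that passed the filter on low counts. RNA was sequenced in bulk from 16 libraries, 4 per group, of male mice aged 13 to 14 weeks. Brain CD11c cells were eYFP-positive cells of the hemisphere ipsilateral to the ischemia, and spleen CD11c cells were eYFP-positive cells of the spleen. Both came from the line Tg(Itgax-Venus)1Mnz, where a yellow fluorescent protein is made under the Itgax promoter, so that any cell with an active Itgax promoter can enter the gate. Ischemic microglia were CX3CR1-positive cells of the ipsilateral hemisphere, and control microglia were such cells of control brain. Both came from the line CX3CR1CreERT2:Rosa26-tdT, in which an inducible Cre under the Cx3cr1 promoter turns on tdTomato, which other macrophages that use this promoter can also carry. Mouse line and cell population therefore cannot be told apart between CD11c cells and microglia. Nothing in the labels says that each library is a separate animal, so p-values refer to the spread among libraries, which may be technical. How long after ischemia cells were taken, and whether spleen donors had ischemia, is not given in the sources used here.

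Macrophages of the splenic red pulp take up aged red blood cells, free the iron from heme with heme oxygenase 1 (Hmox1) and return it to the blood through ferroportin (Slc40a1), the only known cellular iron exporter of mammals. Iron that stays in the cell is held in ferritin, a shell of heavy (Fth1) and light (Ftl1) chains. The iron regulatory proteins, of which Ireb2 encodes one, bind hairpins called iron-responsive elements in messenger RNA: in a 5′ UTR they block translation, and in a 3′ UTR they protect the message from decay. Read counts show the amount of message and not how much of it is translated.

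Among the members, 4 of 10 carried a match to such a hairpin by a search of the UTRs of GENCODE M21 transcripts on GRCm38. The search asked for a bulged C, a stem of 5 bases, the loop CAGTGN and 5 bases that pair with the stem, with G and T also taken as a pair. Elements with another loop or an imperfect stem are missed by this rule. A member without a match may therefore still hold an element, and a member with matches may hold more. It found a match in 160 of 21901 protein-coding genes, or 0.731%, so that a match is a description and not a measured binding site. The sites are shown because iron regulatory proteins are known to bind hairpins of this form in export, storage and uptake genes. Capitals mark the 17 bases of the match, and the coordinates cover those bases. Exon numbers are those of a single transcript per site. For Fth1 this is Fth1-203, while 4 of its transcripts hold the site and may number the exon otherwise.
Slc40a1, 5′ UTR, exon 1, chr1:45925471-45925487, minus strand: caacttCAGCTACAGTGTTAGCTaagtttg
Fth1, 5′ UTR, exon 2, chr19:9982738-9982754, plus strand: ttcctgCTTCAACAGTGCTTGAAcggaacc
Ftl1, 5′ UTR, exon 1, chr7:45459785-45459801, minus strand: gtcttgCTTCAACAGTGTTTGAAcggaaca
Tfrc, 3′ UTR, exon 19, chr16:32631225-32631241, plus strand: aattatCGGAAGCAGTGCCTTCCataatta
Tfrc, 3′ UTR, exon 19, chr16:32631604-32631620, plus strand: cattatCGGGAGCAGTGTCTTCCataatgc
Tfrc, 3′ UTR, exon 19, chr16:32631669-32631685, plus strand: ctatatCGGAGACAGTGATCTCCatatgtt
Tfrc, 3′ UTR, exon 19, chr16:32631716-32631732, plus strand: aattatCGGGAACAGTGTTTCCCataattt
The export and storage genes each held 1 match, in the 5′ UTR, and the uptake receptor held 4 matches, in the 3′ UTR. The Fth1 and Ftl1 hairpins had the same stem bases on both sides.

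Libraries held 31569304 to 48245164 counts, and levels are given as CPM, counts per 1000000 counts of the library after TMM scaling. Summed CPM of 8 microglia markers were 7744 to 8929 in brain CD11c cells, 197 to 280 in spleen CD11c cells, 18289 to 25700 in ischemic microglia and 25809 to 31028 in control microglia. Summed CPM of 12 dendritic cell markers were 18192 to 48206 in brain CD11c cells, 15444 to 24728 in spleen CD11c cells, 885 to 1352 in ischemic microglia and 1694 to 3200 in control microglia. In both CD11c groups Cd74, H2-Aa, H2-Ab1 and H2-Eb1 made up most of this sum, and their means were higher in brain. Means of Itgax, Flt3, Ccr7 and Cd209a were also higher in brain CD11c cells. Zbtb46 was lower in brain, at 24.2 ± 10.5 against 73.3 ± 21.1 CPM in spleen CD11c cells. Clec9a (28.2 ± 13.8 against 51.5 ± 15.2 CPM), Xcr1 and Irf8 also had lower means in brain. Of the brain CD11c libraries, replicates 1 and 2 stood apart from replicates 3 and 4 in several members and marker lists, as given near the end, and the labels name these libraries in different ways. Spleen libraries held 2271 to 2983 CPM of B cell markers and a variable amount of erythroid message.

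The pattern that separated the groups most was that of the iron exporter and the red pulp genes. Slc40a1, Spic and Vcam1 were highest in CD11c cells of the spleen and, for Slc40a1 and Vcam1, lowest in CD11c cells of the brain. Under ischemia, microglia had less Slc40a1 and Spic message and more Fth1 and Slc11a2 message than control microglia. The ferritin genes ran the other way across the CD11c cells, higher in brain than in spleen.

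**Figure D1:**
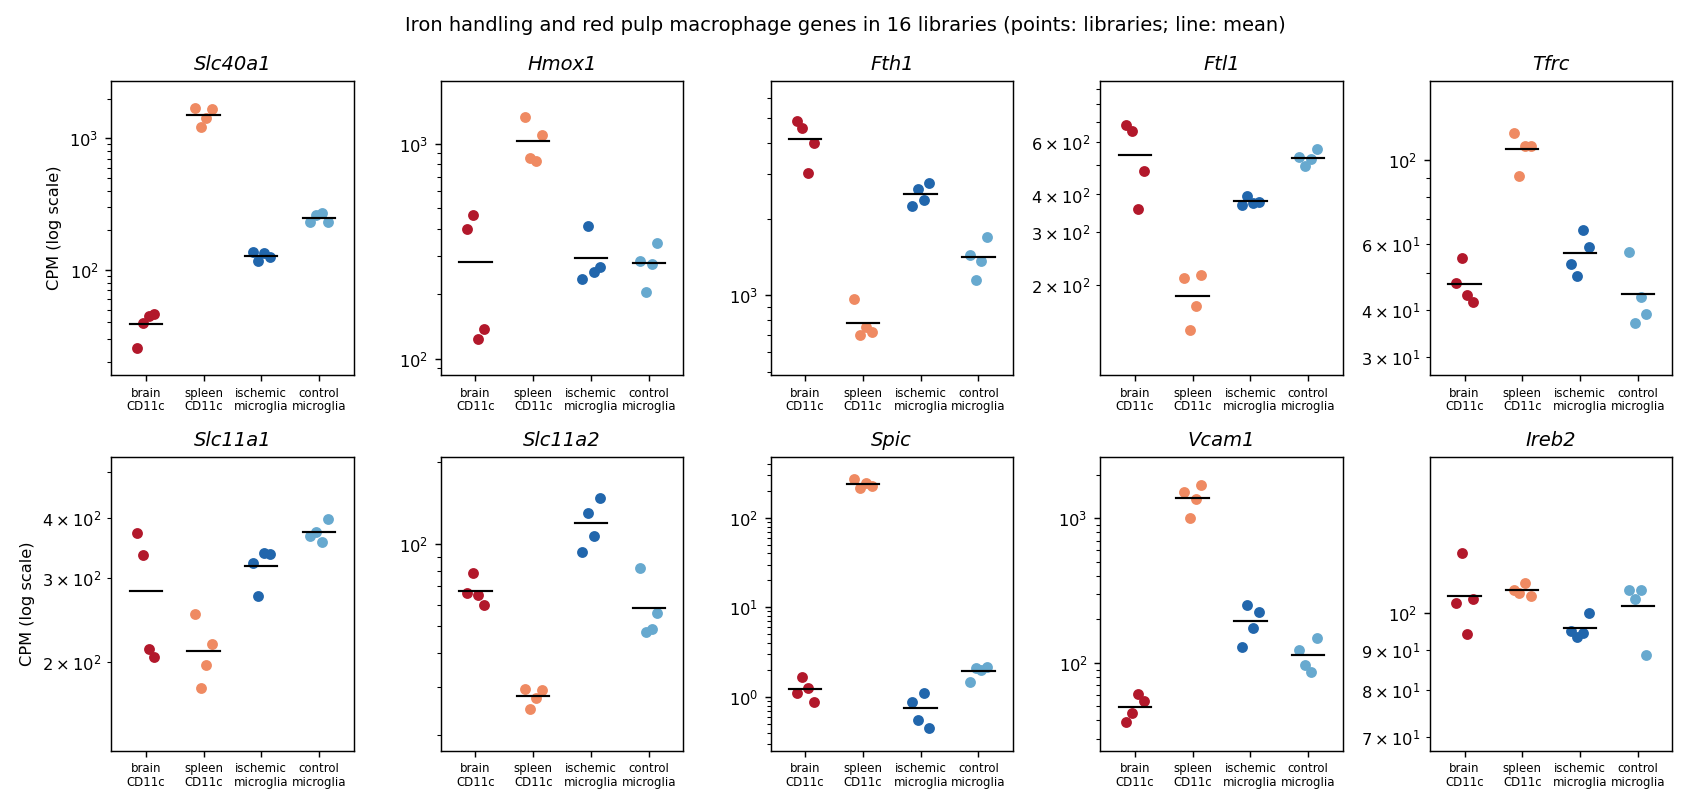
CPM of each member on a logarithmic axis in the 16 libraries; points are libraries and lines are means of 4. Slc40a1, Spic and Vcam1 sit highest in spleen CD11c cells, Fth1 in brain CD11c cells and Slc11a2 in ischemic microglia, while Ireb2 lies between 88.7 and 119 CPM throughout.

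Slc40a1 (ENSMUSG00000025993, chr1:45908068-45926523; gene coordinates here are of GRCm38, and all members are protein-coding) had 25.6, 39.4, 44.7 and 46.2 CPM in brain CD11c cells, 1698, 1218, 1418 and 1664 CPM in spleen CD11c cells, 137, 117, 134 and 125 CPM in ischemic microglia, and 231, 263, 272 and 233 CPM in control microglia. No group overlapped another. The order was spleen CD11c cells, control microglia, ischemic microglia and brain CD11c cells, and each neighbouring pair differed. Brain CD11c cells averaged 39 ± 9.38 CPM and spleen CD11c cells 1499 ± 225 CPM (SD, n = 4 each), a 38.5-fold difference between means. The log2 fold change was −5.27 ± 0.19 (SE) with an adjusted p of 9.93e-13 (edgeR quasi-likelihood test, Benjamini-Hochberg adjustment, as for every adjusted p below). Against ischemic microglia, brain CD11c cells were lower by a log2 fold change of −1.72 ± 0.16 (adjusted p 4.02e-07, edgeR). Ischemic microglia averaged 128 ± 8.98 CPM and control microglia 250 ± 20.8 CPM, a log2 fold change of −0.96 ± 0.16 (adjusted p 0.000242, edgeR). Summed markers of monocytes, all 6 of 6 with a count, were 1148 to 2530 CPM in ischemic microglia and 21.7 to 39.3 CPM in control microglia. Fn1, which activated macrophages also express, made up nearly all of this sum in ischemic microglia, at 1129 to 2510 CPM against 2.38 to 6.56 CPM in control microglia. Ccr2, the chemokine receptor of monocytes, averaged 13.8 ± 1.73 CPM in ischemic against 27.9 ± 8.06 CPM in control microglia, and Plac8 averaged 6.85 ± 3.84 against 0.863 ± 0.213 CPM. The part of these markers in differences between the microglia groups was not tested. In these bulk libraries fewer cells of a type and less RNA per cell cannot be told apart.

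Hmox1 (ENSMUSG00000005413, chr8:75093621-75100589), the inducible heme oxygenase, had 399, 463, 123 and 138 CPM in brain CD11c cells, 1333, 860, 831 and 1099 CPM in spleen CD11c cells, 234, 413, 252 and 267 CPM in ischemic microglia, and 285, 205, 276 and 344 CPM in control microglia. Every spleen library lay above the other 12. The other 3 groups overlapped, and the brain CD11c libraries fell into a high and a low pair. Brain CD11c cells averaged 281 ± 176 CPM and spleen CD11c cells 1031 ± 234 CPM, a log2 fold change of −1.88 ± 0.37 (adjusted p 0.000409, edgeR). Between brain CD11c cells and ischemic microglia the log2 fold change was −0.06 ± 0.36 (adjusted p 0.933, edgeR). Between ischemic and control microglia it was 0.07 ± 0.36 (adjusted p 0.913, edgeR). With standard errors of this size a small difference between those groups was not detectable.

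Spic (ENSMUSG00000004359, chr10:88674772-88685015) encodes an Ets transcription factor that mouse red pulp macrophages need to develop. It had 1.12, 1.68, 1.25 and 0.886 CPM in brain CD11c cells, 269, 217, 247 and 224 CPM in spleen CD11c cells, 0.877, 0.558, 1.12 and 0.45 CPM in ischemic microglia, and 1.45, 2.13, 2.02 and 2.17 CPM in control microglia. The spleen libraries stood far above the rest, and the other 12 libraries held little message. The lowest count in a library was 28 in brain CD11c cells, 9657 in spleen CD11c cells, 17 in ischemic microglia and 58 in control microglia. Means of 1.23 ± 0.333 CPM in brain and 239 ± 23.9 CPM in spleen CD11c cells differed 194-fold, with a log2 fold change of −7.59 ± 0.24 (adjusted p 3.13e-13, edgeR). Ischemic microglia were lower than control microglia, with no overlap and a log2 fold change of −1.36 ± 0.24 (adjusted p 0.00038, edgeR), at levels of 0.752 ± 0.307 and 1.94 ± 0.333 CPM. Brain CD11c cells were called higher than ischemic microglia (0.72 ± 0.25, adjusted p 0.0325, edgeR), but the libraries overlapped. That call was lost with limma-voom (adjusted p 0.0981), with no filter on low counts (0.0591, edgeR), with only both groups in the fit (0.194, edgeR) and in 4 of 8 edgeR fits that left out a library, namely ischemic replicate 2 (0.0823) or 4 (0.0867) or brain replicate 2 (0.105) or 3 (0.056).

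Vcam1 (ENSMUSG00000027962, chr3:116109949-116129688) encodes an adhesion molecule that red pulp macrophages and inflamed endothelium carry. It had 38.9, 45.1, 61 and 54.2 CPM in brain CD11c cells, 1515, 996, 1347 and 1692 CPM in spleen CD11c cells, 129, 250, 173 and 223 CPM in ischemic microglia, and 122, 97.4, 86.5 and 149 CPM in control microglia. Spleen libraries were highest and brain CD11c libraries lowest, both clear of all others, and the microglia groups overlapped each other. The log2 fold change of brain over spleen CD11c cells was −4.80 ± 0.26 (adjusted p 1.78e-10, edgeR), or 27.9-fold between means of 49.8 ± 9.79 and 1388 ± 297 CPM. Against ischemic microglia, brain CD11c cells were lower by −1.96 ± 0.23 (adjusted p 4.8e-06, edgeR). Ischemic microglia averaged 194 ± 53.8 CPM against 114 ± 27.7 CPM in control microglia, a log2 fold change of 0.77 ± 0.22 (adjusted p 0.0134, edgeR). Leaving out ischemic replicate 2, the highest of its group, ended this call (adjusted p 0.0558, edgeR), as did leaving out control replicate 3, the lowest (0.054). Summed CPM of 10 endothelial markers were 59.5 to 91 in brain CD11c cells, 173 to 216 in spleen CD11c cells, 34.9 to 57.1 in ischemic microglia and 64.9 to 77.2 in control microglia. In spleen CD11c cells 8 of 10 had a count: Slco1a4 and Emcn were at 0, Cldn5 was at most 0.0412 CPM, and Pecam1, which blood cells also carry, had 147 to 175 CPM. Esam averaged 2.34 ± 1.86 CPM in brain against 26.1 ± 8.57 CPM in spleen CD11c cells, and Kdr 23.7 ± 6.3 against 4.16 ± 0.691 CPM. The part of endothelial content in the Vcam1 levels was not tested.

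The spleen libraries differed in their content of erythroid message. Summed CPM of 10 erythroid markers were 3.83 to 4.95 in brain CD11c cells, with Slc4a1 and Epb42 at 0, and 3595, 104, 54 and 533 in the 4 spleen CD11c libraries. Slc40a1, Hmox1, Vcam1, Ftl1, Slc11a1 and Slc11a2 were highest in spleen replicates 1 and 4, which also had the most erythroid message. Spic and Fth1 were highest in replicates 1 and 3. Sums of neutrophil (396, 200, 235 and 819 CPM), monocyte and border macrophage markers were also highest in replicates 1 and 4. Those of dendritic cell, T cell and B cell markers were not. Spleen replicate 3, with an erythroid sum of 54 CPM, had 1418 CPM of Slc40a1, 831 CPM of Hmox1, 247 CPM of Spic and 1347 CPM of Vcam1. The part of erythroid or other cell content in these levels was not tested.

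Fth1 (ENSMUSG00000024661, chr19:9980598-9985098), the ferritin heavy chain that oxidises iron for storage, had 4883, 4584, 3023 and 4000 CPM in brain CD11c cells, 966, 696, 748 and 714 CPM in spleen CD11c cells, 2255, 2635, 2375 and 2776 CPM in ischemic microglia, and 1438, 1150, 1364 and 1695 CPM in control microglia. No groups overlapped, and the order was brain CD11c cells, ischemic microglia, control microglia and spleen CD11c cells. Brain CD11c cells averaged 4122 ± 820 CPM and spleen CD11c cells 781 ± 125 CPM, a log2 fold change of 2.40 ± 0.17 (adjusted p 4.43e-09, edgeR). Brain CD11c cells were also higher than ischemic microglia (0.72 ± 0.16, adjusted p 0.0024, edgeR). Ischemic microglia, at 2510 ± 238 CPM, were higher than control microglia, at 1412 ± 225 CPM (0.83 ± 0.16, adjusted p 0.000998, edgeR).

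Ftl1 (ENSMUSG00000050708, chr7:45457944-45459884), the light chain that helps the iron core form, had 679, 653, 359 and 480 CPM in brain CD11c cells, 210, 141, 170 and 216 CPM in spleen CD11c cells, 370, 395, 376 and 379 CPM in ischemic microglia, and 533, 496, 526 and 566 CPM in control microglia. It was lowest in the spleen, and unlike Fth1 it was lower in every ischemic than in every control microglia library. Brain over spleen CD11c cells gave 1.56 ± 0.17 (adjusted p 9.66e-07, edgeR). Brain CD11c cells over ischemic microglia gave 0.51 ± 0.17 (adjusted p 0.025, edgeR), with overlapping libraries, and the call ended without brain replicate 1 (0.0735) or 2 (0.0658). Ischemic over control microglia gave −0.48 ± 0.17 (adjusted p 0.0373, edgeR). This call was lost in 7 of 8 fits that left out a library, all but the one without control replicate 2, with adjusted p of 0.0464 to 0.0734 over the 8 edgeR fits, and with no filter on low counts (0.0629).

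The balance of both chains was compared as the ratio of Fth1 to Ftl1 counts per kb of exon, which no scaling between libraries can move. It was 2.78, 2.71, 3.26 and 3.22 in brain CD11c cells, 1.78, 1.9, 1.7 and 1.28 in spleen CD11c cells, 2.36, 2.58, 2.44 and 2.83 in ischemic microglia, and 1.04, 0.895, 1 and 1.16 in control microglia. The absolute ratio rests on the lengths used: per kb of coding sequence it was 6.84 to 8.21 in brain CD11c cells, 3.22 to 4.79 in spleen CD11c cells, 5.94 to 7.14 in ischemic microglia and 2.26 to 2.91 in control microglia. Differences between groups do not depend on that choice. On the log2 scale the ischemic minus control difference was 1.32, and an exact two-sided permutation test gave p = 0.0286 (adjusted over 3 comparisons 0.0429), the smallest p that 4 against 4 libraries allow. Brain minus spleen CD11c cells gave 0.86, again with p = 0.0286 (exact permutation, adjusted 0.0429). Brain CD11c cells minus ischemic microglia gave 0.23 with p = 0.0857 (exact permutation, adjusted 0.0857). Both ferritin genes have processed copies: 5 pseudogene rows (Ftl2-ps, Fth-ps2, Ftl1-ps2, Fth-ps3 and Ftl1-ps1) held 7, 75, 61, 35 and 7 counts over all 16 libraries, at most 0.0243% of the parent gene. Reads that match several copies may be missing from the parents, since the counting rule is not given in the sources used here, so the absolute Fth1 and Ftl1 levels and this ratio are less certain than the other members' levels.

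**Figure D2:**
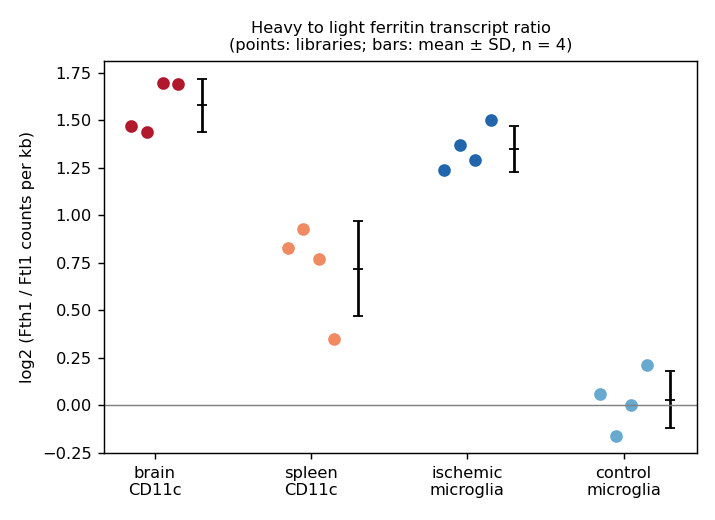
Log2 ratio of Fth1 to Ftl1 counts per kb of exon in the 16 libraries, with the mean and SD of 4 beside each group. Ischemic microglia lie around a mean of 1.35 and control microglia around a mean of 0.03, with no overlap between them.

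Tfrc (ENSMUSG00000022797, chr16:32608920-32632794), the receptor that brings in transferrin-bound iron, had 47.1, 54.9, 43.7 and 42 CPM in brain CD11c cells, 118, 91.1, 109 and 109 CPM in spleen CD11c cells, 53, 49.3, 65.4 and 58.8 CPM in ischemic microglia, and 57, 37, 43.2 and 39.1 CPM in control microglia. Spleen CD11c libraries were above all others, and the remaining groups overlapped. Brain over spleen CD11c cells gave −1.19 ± 0.14 (adjusted p 1.54e-06, edgeR). The spleen libraries, in the same order, had 3595, 104, 54 and 533 CPM of erythroid markers. The part of erythroid content in the Tfrc levels was not tested. Brain CD11c cells over ischemic microglia gave −0.27 ± 0.14 (adjusted p 0.132, edgeR). For ischemic over control microglia the log2 fold change was 0.36 ± 0.14 with an adjusted p of 0.0504 (edgeR). The adjusted p was 0.0345 with DESeq2 and 0.0407 with limma-voom, and it was 0.0056 without control replicate 1, the highest control library (log2 fold change 0.50, edgeR) and 0.0417 without ischemic replicate 2, the lowest ischemic library.

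Slc11a2 (ENSMUSG00000023030, chr15:100387898-100425072) encodes DMT1, which moves ferrous iron out of endosomes. It had 66.3, 78.5, 65.1 and 60 CPM in brain CD11c cells, 29.5, 24.9, 27.2 and 29.2 CPM in spleen CD11c cells, 93.2, 130, 107 and 147 CPM in ischemic microglia, and 81.6, 47.6, 48.8 and 55.9 CPM in control microglia. Ischemic microglia were above every other group and spleen CD11c cells below every other group, and brain CD11c cells overlapped control microglia. Ischemic microglia averaged 119 ± 24.1 CPM and control microglia 58.5 ± 15.8 CPM, a log2 fold change of 1.03 ± 0.17 (adjusted p 0.000221, edgeR). Brain CD11c cells were lower than ischemic microglia (−0.82 ± 0.17, adjusted p 0.000929, edgeR) and higher than spleen CD11c cells (1.28 ± 0.17, adjusted p 5.91e-06, edgeR).

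Slc11a1 (ENSMUSG00000026177, chr1:74375195-74386062) encodes NRAMP1, the related divalent metal transporter of phagosomes. It had 373, 335, 213 and 204 CPM in brain CD11c cells, 252, 176, 197 and 218 CPM in spleen CD11c cells, 323, 275, 338 and 336 CPM in ischemic microglia, and 367, 375, 357 and 398 CPM in control microglia. The brain CD11c libraries again fell into a high and a low pair. Brain CD11c cells over ischemic microglia gave −0.18 ± 0.17 (adjusted p 0.454, edgeR), and ischemic over control microglia gave −0.24 ± 0.17 (adjusted p 0.301, edgeR) although those libraries did not overlap. Brain over spleen CD11c cells gave 0.42 ± 0.17 (adjusted p 0.0416, edgeR) with overlapping libraries. This call was lost in 5 of 8 edgeR fits that left out a library, namely brain replicate 1 (0.232) or 2 (0.158) or spleen replicate 2 (0.121), 3 (0.0929) or 4 (0.0617), and also with limma-voom (0.0583), with library totals as scaling (0.437, edgeR) and with only both groups in the fit (0.11, edgeR). Per kb of exon, the Slc11a1 level was above the Slc11a2 level in every group: 76 against 10.6 CPM in brain CD11c cells, 56.8 against 4.36 in spleen CD11c cells, 85.8 against 18.8 in ischemic microglia and 101 against 9.2 in control microglia.

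Ireb2 (ENSMUSG00000032293, chr9:54863789-54912530), which encodes iron regulatory protein 2, had 103, 119, 94 and 104 CPM in brain CD11c cells, 107, 106, 109 and 105 CPM in spleen CD11c cells, 94.9, 93.4, 94.3 and 100 CPM in ischemic microglia, and 107, 104, 107 and 88.7 CPM in control microglia. All groups lay close together, and no neighbouring pair in the order of levels differed. The log2 fold changes were 0.13 ± 0.08 for brain CD11c cells over ischemic microglia (adjusted p 0.239), −0.09 ± 0.08 for ischemic over control microglia (0.445) and −0.02 ± 0.08 for brain over spleen CD11c cells (0.811), all by edgeR. With library totals as scaling, which shifts all genes, each of these was called (0.24, −0.24 and −0.30). Iron regulatory protein 2 is known to be controlled by degradation of the protein, which read counts do not show.

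Set side by side, 6 of 10 members were called between brain CD11c cells and ischemic microglia, 3 higher and 3 lower, where 38.8% of all tested genes were called (19.7% higher, 19.1% lower). Libraries did not overlap for 4 of 10 members, against 31.4% of all genes. Between ischemic and control microglia 6 of 10 were called, 3 higher and 3 lower (background 35.7%, with 17.7% higher and 18% lower), and 6 of 10 did not overlap (background 43.3%). Between brain and spleen CD11c cells 9 of 10 were called, 4 higher and 5 lower (background 64.2%, with 31.2% higher and 33% lower), and 8 of 10 did not overlap (background 55.2%). In the remaining pairs, 5 of 10 members were called between brain CD11c cells and control microglia (background 58.9%), 9 of 10 between spleen CD11c cells and control microglia (68.8%) and 9 of 10 between spleen CD11c cells and ischemic microglia (68.5%). These counts are descriptions beside the background, and nothing particular to the members is read from them. The median log2 fold changes of the members were −0.12, −0.01 and −0.60, against 0.00, −0.05 and −0.04 over all genes. The first comparison shares the ischemic microglia with the second and the brain CD11c cells with the third.

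**Figure D3:**
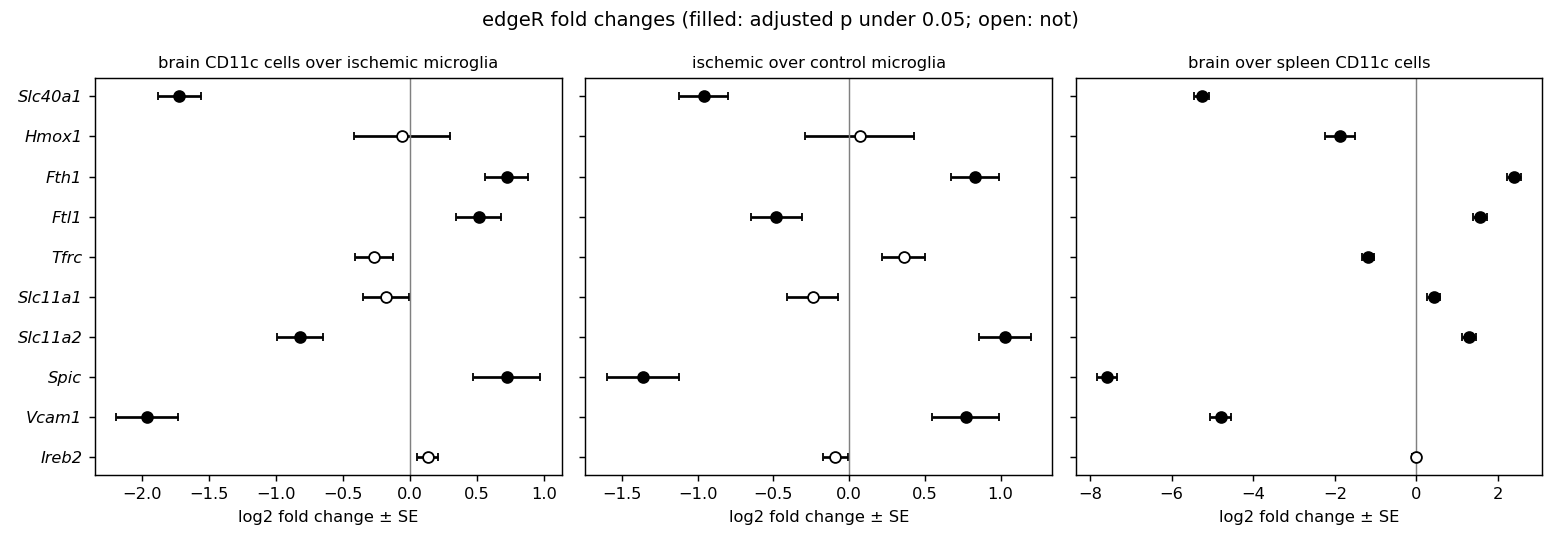
Log2 fold change ± SE of each member by edgeR in 3 comparisons, each panel with its own axis; filled points have an adjusted p under 0.05. Slc40a1 is below 0 and Fth1 above 0 in each of the 3 panels. Every other member changes side between panels, and Ftl1, Slc11a2, Spic and Vcam1 do so with a call on both sides.

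Other genes of these pathways were read from 6 lists. Their counts are descriptions, to be set beside the share of all tested genes that was called: 38.8% between brain CD11c cells and ischemic microglia (19.7% higher, 19.1% lower), 35.7% between ischemic and control microglia (17.7% higher, 18% lower) and 64.2% between brain and spleen CD11c cells (31.2% higher, 33% lower). The medians over all genes were 0.00, −0.05 and −0.04 in these comparisons. Of 18 genes of red pulp and other splenic macrophages, 17 were tested, and between brain and spleen CD11c cells 4 were higher and 12 lower, with a median log2 fold change of −1.98 against −0.04 over all genes. The largest deficits in brain CD11c cells were those of C6, a complement component, at 0.0913 ± 0.145 against 125 ± 52.4 CPM in spleen (−10.31 ± 0.64), of Itgad, the integrin CD11d of red pulp macrophages, at 1.56 ± 1.07 against 453 ± 70.9 CPM (−8.16 ± 0.35), and of the Ets factor Spib at 11 ± 2.85 against 331 ± 51.5 CPM (−4.91 ± 0.25). Spib is also known from B cells, whose 6 markers summed to 10.9 to 17 CPM in brain and 2271 to 2983 CPM in spleen CD11c cells, and their part in the difference was not tested. Siglec1, a sialic acid receptor of metallophilic macrophages, was higher in brain (116 ± 68.7 against 27.8 ± 8.47 CPM), and so were Spi1, Adgre1 and Mertk.

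**Figure D4:**
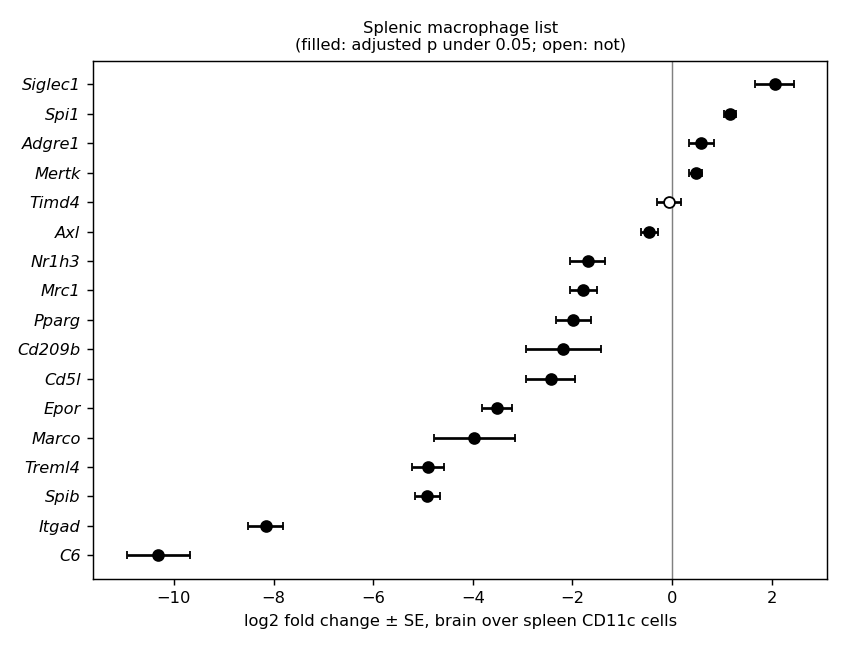
Log2 fold change ± SE of brain over spleen CD11c cells for 17 tested genes of the splenic macrophage list. The 12 genes called below 0 are led by C6 and Itgad; Siglec1, Spi1, Adgre1 and Mertk are called above 0.

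Between ischemic and control microglia 6 of these 17 genes were higher and 3 lower, with a median of 0.80 against −0.05 over all genes. Cd5l, a secreted scavenger protein of tissue macrophages, averaged 143 ± 69 CPM in ischemic and 1.05 ± 0.211 CPM in control microglia (7.09 ± 0.65, adjusted p 2.11e-06, edgeR). Axl, a receptor for dying cells, averaged 481 ± 39.6 and 87.7 ± 22.6 CPM (2.45 ± 0.18), and Siglec1 averaged 172 ± 25.2 and 52 ± 14.9 CPM (1.72 ± 0.38). Mrc1, the mannose receptor of border macrophages, was lower at 251 ± 14 against 483 ± 129 CPM (−0.94 ± 0.27), and Cd209b and Timd4 were lower as well. Border macrophage markers (8 of 8 with a count) summed to 2090 to 2844 CPM in ischemic and 1799 to 2830 CPM in control microglia. Stab1, at 1694 ± 312 and 1627 ± 251 CPM, made up most of this sum, while Pf4 averaged 20.1 ± 5.49 CPM in ischemic and 50.9 ± 16 CPM in control microglia, F13a1 149 ± 24.6 and 184 ± 49.4 CPM, and Cd163 73.5 ± 27.1 and 85.9 ± 21.2 CPM. Lyve1 (31.5 ± 10 and 42 ± 15.9 CPM) and Cbr2 (43.2 ± 8.84 and 55.1 ± 21.5 CPM) also had lower means in ischemic microglia. Folr2 ran the other way, at 44.6 ± 9.51 CPM in ischemic and 30.6 ± 7.86 CPM in control microglia. The part of border macrophage content in the lower Mrc1, Cd209b and Timd4 levels was not tested. Between brain CD11c cells and ischemic microglia 6 genes were higher, among them Spib, Pparg and Nr1h3, and 6 lower, among them Mertk at 313 ± 44.6 against 772 ± 60.2 CPM.

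Of 15 genes beside Hmox1 that BACH1 and NRF2 control or that belong to this circuit, 7 rose and 1 fell in ischemic microglia relative to control microglia (background 17.7% higher, 18% lower), with a median of 0.29 against −0.05 over all genes. Nfe2l2, which encodes NRF2, averaged 1001 ± 188 against 500 ± 127 CPM (1.00 ± 0.17), and Bach1, the heme-binding repressor of Hmox1, averaged 477 ± 79.1 against 247 ± 77.7 CPM (0.95 ± 0.18). The antioxidant enzymes Srxn1 (1.76 ± 0.36) and Txnrd1 (1.45 ± 0.26) and the cystine carrier Slc7a11 (1.81 ± 0.43) were the largest increases, and Gclc fell (−0.32 ± 0.11). Between brain and spleen CD11c cells 11 were higher and 1, Keap1, lower (background 31.2% higher, 33% lower), the median being 1.63 against −0.04 over all genes. Srxn1 averaged 77 ± 41.5 against 4.3 ± 1.17 CPM (4.16 ± 0.40), Slc7a11 54.2 ± 28.7 against 4.56 ± 0.655 CPM (3.57 ± 0.45) and Nfe2l2 815 ± 84.4 against 74.4 ± 8.8 CPM (3.45 ± 0.18). Between brain CD11c cells and ischemic microglia 5 were higher and 4 lower, led by Gsr, glutathione reductase, at 95.9 ± 12.4 against 19.9 ± 2.17 CPM (2.27 ± 0.15).

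Of 15 tested genes of heme uptake, synthesis and breakdown, 6 were higher and 3 lower in brain than in spleen CD11c cells, 9 of 15 in all beside a background of 64.2%, with a median of 0.22. Cd163, the scavenger receptor for haemoglobin bound to haptoglobin, averaged 10.4 ± 7.37 against 109 ± 45.5 CPM (−3.40 ± 0.48), Blvrb, which reduces biliverdin, 32.4 ± 5.57 against 74.2 ± 7.99 CPM (−1.19 ± 0.14), and Slc48a1, which carries heme out of the phagolysosome, 74.7 ± 14.8 against 161 ± 20 CPM (−1.11 ± 0.14). Slc46a1, a carrier of folate and heme, was higher in brain at 34 ± 5.03 against 2.83 ± 0.381 CPM (3.59 ± 0.14). Between brain CD11c cells and ischemic microglia 3 were higher and 5 lower, with Cd163 at 10.4 ± 7.37 against 73.5 ± 27.1 CPM (−2.83 ± 0.47). Between ischemic and control microglia 1 was higher, Alas1 (0.68 ± 0.13), the first enzyme of heme synthesis, and 1 lower, Ppox (−0.77 ± 0.15), of 15 tested by edgeR (background 35.7%).

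Of 13 tested genes of iron uptake and reduction, 1 rose and 3 fell in ischemic relative to control microglia, 4 of 13 in all beside a background of 35.7%, with a median of −0.16. Slc39a14, which encodes the metal carrier ZIP14, averaged 87.7 ± 9.34 against 26.5 ± 1.36 CPM (1.73 ± 0.31), and both mitoferrins, Slc25a37 (−1.04 ± 0.12) and Slc25a28 (−0.51 ± 0.09), which bring iron into mitochondria, were lower. Between brain and spleen CD11c cells 6 were higher, among them Slc39a14 (123 ± 67.4 against 16.2 ± 2.65 CPM), and 3 were lower: Lcn2, Ltf and Steap4. The 6 include Steap2, which was barely present, at 0.138 ± 0.277 CPM in brain and 0 in spleen, with overlapping libraries. Lcn2 and Ltf are abundant in neutrophils, whose 8 markers summed to 1.43 to 4.87 CPM in brain and 200 to 819 CPM in spleen CD11c cells, and their part in the difference was not tested. Between brain CD11c cells and ischemic microglia 2 were higher and 2 lower, with transferrin (Trf) at 57.3 ± 16.3 against 111 ± 5.85 CPM (−0.95 ± 0.18).

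Of 11 tested genes of iron storage, sensing and export beside the members, 7 were higher and 2 lower in brain than in spleen CD11c cells. Nupr1 averaged 45.2 ± 7.91 against 2.74 ± 0.503 CPM (4.04 ± 0.19), and Ncoa4, the receptor that delivers ferritin to lysosomes, averaged 5.08 ± 1.47 against 8.95 ± 2.13 CPM (−0.82 ± 0.21). Between brain CD11c cells and ischemic microglia 4 were higher and 3 lower. Fbxl5, the ligase subunit that marks iron regulatory proteins for degradation, averaged 138 ± 14.1 against 75.1 ± 7.67 CPM (0.88 ± 0.10), and ceruloplasmin (Cp) 10.6 ± 2.72 against 30.2 ± 2.9 CPM (−1.51 ± 0.34). Between ischemic and control microglia 3 rose, with Hif1a at 432 ± 80.2 against 166 ± 29.3 CPM (1.38 ± 0.21), and 1 fell, Ncoa4. Of 11 genes of iron-sulphur clusters, 1 was called between brain CD11c cells and ischemic microglia (Bola3, higher), 2 between ischemic and control microglia (Hscb and Glrx5, both higher), and 4, among them Isca1 (0.95 ± 0.10) and Iscu (0.82 ± 0.13), were higher in brain than in spleen CD11c cells.

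Within brain CD11c cells, replicates 1 and 2 differed from replicates 3 and 4. Mean Hmox1 was 431 CPM in replicates 1 and 2 and 130 CPM in replicates 3 and 4, Slc11a1 354 and 208 CPM, and Ftl1 666 and 419 CPM. Fth1 (4733 and 3511 CPM), Tfrc (51 and 42.9 CPM) and Slc11a2 (72.4 and 62.6 CPM) were also higher in replicates 1 and 2, without overlap. Slc40a1 ran the other way at 32.5 and 45.4 CPM, as did Vcam1 at 42 and 57.6 CPM. Markers moved with this split: monocyte markers summed to 5306 and 1885 CPM, border macrophage markers to 2173 and 880 CPM, cell cycle markers to 710 and 251 CPM, and dendritic cell markers to 21981 and 43429 CPM. Most of the dendritic cell sum was Cd74, H2-Aa, H2-Ab1 and H2-Eb1. In replicates 1 and 2 the monocyte sum was mostly Fn1, which had 4498, 3752, 1293 and 449 CPM in replicates 1 to 4, and Chil3 had 360, 245, 35.3 and 30 CPM. Ccr2 differed less, at 656, 686, 611 and 535 CPM, and Plac8 ran the other way, at 165, 132, 319 and 449 CPM. The border macrophage sum was mostly Stab1, at 1443, 1514, 815 and 533 CPM, while Cd163 ran the other way, at 6.35, 3.45, 11.4 and 20.2 CPM. Members of 1 marker list therefore did not all move together, and their part in the levels of iron genes was not tested. With replicates 1 and 2 alone, Hmox1 over ischemic microglia was 0.56 (adjusted p 0.0819, edgeR), and with replicates 3 and 4 alone it was −1.15 (adjusted p 0.00248). Slc11a1 over ischemic microglia was 0.16 (0.357) and −0.59 (0.00241) in the same fits. Over spleen CD11c cells Hmox1 was lower with either pair, at −1.25 and −3.02. Slc40a1, Vcam1, Fth1 and Slc11a2 kept direction and call against both ischemic microglia and spleen CD11c cells in each of these fits.

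**Figure D5:**
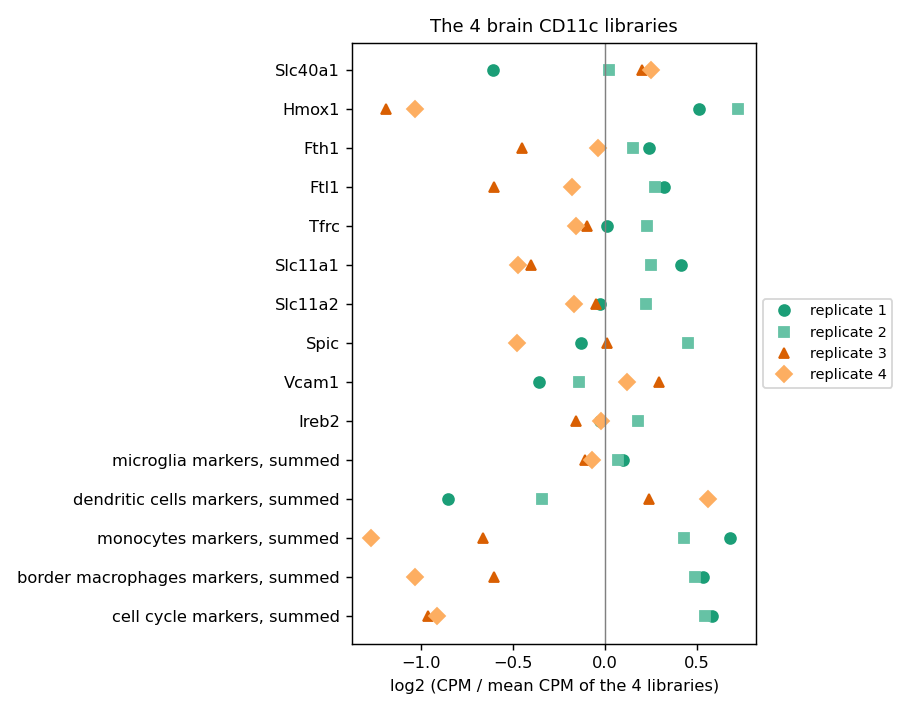
Log2 of CPM over the mean of the 4 brain CD11c libraries, for each member and for 5 summed marker lists; one symbol per library. Hmox1, Slc11a1, Ftl1, Fth1, Tfrc and Slc11a2 are higher in replicates 1 and 2. So are the monocyte sum (there mostly Fn1), the border macrophage sum (mostly Stab1) and the cell cycle sum. Slc40a1 and Vcam1 are lower there. The dendritic cell sum (mostly Cd74 and the H2 genes) is higher in replicates 3 and 4.

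Genes whose profile was most like that of a member were sought over the 16 libraries among 10943 genes, by the root mean square difference of log2 CPM after each profile was centred. For Slc40a1 these were Gimap9 (0.43), Sspn (0.48) and Cecr2 (0.49), for Hmox1 Skp2 (0.33), Sh3bp5 (0.34) and Fbxo5 (0.41), and for Spic Scn4a (0.51), Edaradd (0.57) and Cadm3 (0.59). For Vcam1 they were Vstm4 (0.44), Kcnj10 (0.56) and Pik3c2b (0.59), and for Tfrc Phtf2 (0.20), Amn1 (0.21) and Smc6 (0.22). All of these, like the members they resemble, had their highest mean in spleen CD11c cells, which follows from how they were chosen.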

How the data were processed

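The authors deposited 1 table of read counts per gene, in whole numbers, for 16 libraries. Per the labels' protocols, cells were freed by enzymes, cleared on Percoll and sorted on the reporters alone, and libraries were stranded and made from polyadenylated RNA. FastQC 0.11.5, STAR 2.5.3a and the build GRCm38 are named in the submitters' processing notes. Which program counted reads, with which strand setting and annotation, is not given in the sources used here. Libraries held 31569304 to 48245164 counts, so 1 CPM stood for 31.57 to 48.25 counts before scaling.

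Symbols were matched for 50376 of 50600 gene IDs. All 16 libraries entered a single edgeR 4.0.16 model (R 4.3.3) with a mean per group, TMM scaling, filterByExpr and robust quasi-likelihood F tests, two-sided. Adjustment was by Benjamini-Hochberg over 16345 genes with a threshold of 0.05, and the scripts were tested on simulated data. The SE is that of the log2 fold change. Gene coordinates and exon lengths are those of GENCODE M21 on GRCm38; opposite-strand or nested genes overlapping exons of Ftl1, Slc11a2 and Vcam1 held at most 47 counts in all. The ferritin ratio used exact permutation tests over libraries. Alternatives were other scalings, no filter, DESeq2 1.42.0, limma-voom (limma 3.58.1), fits of only both groups, pseudogenes added, each library left out, and brain CD11c pairs alone.

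All 10 members were named. From each of 6 pathway lists, up to 3 called genes per direction and comparison were eligible if their higher group averaged 5 CPM or more, and further genes are named with values. Members, the 6 lists and 13 marker lists were chosen with earlier results of these data known.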

Additional observations from a re-analysis of the deposited data

Results flagged for a closer look

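Control microglia replicate 4 had 88.7 CPM of Ireb2, apart from the other 3 control libraries, which lay at 104 to 107 CPM. The gap to its nearest neighbour was 0.834 of the range of the group. It was the only such library among 40 groups of 4 libraries looked at, 10 members in 4 groups, and chance gives about 1 in 20 groups.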

How the results depend on the processing

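Of the member fold changes under all alternatives, 436 kept direction and side of the threshold, 29 lost the call, 12 gained it and 13 turned direction, none of the last with a call in the full fit other than Slc11a1. Counts of genes and of members stayed within 1.5 times; leaving out each library gave 4 to 6, 4 to 6 and 8 to 9 members called for brain CD11c cells over ischemic microglia, ischemic over control microglia and brain over spleen CD11c cells. Of the turned values, Hmox1 of brain CD11c cells over ischemic microglia was 0.02 with library totals, 0.56 with brain replicates 1 and 2 alone, and −0.39 to 0.19 when leaving out each library; with brain replicates 3 and 4 alone it was −1.15 and called (adjusted p 0.00248, edgeR). Hmox1 of ischemic over control microglia was −0.07 with library totals and −0.16 to 0.17 when leaving out each library. Slc11a1 was 0.16 over ischemic microglia with brain replicates 1 and 2 alone and −0.05 over spleen CD11c cells with replicates 3 and 4 alone. Ireb2 of brain over spleen CD11c cells was 0.03 with no filter, 0.06 with replicates 1 and 2 alone and −0.12 to 0.03 when leaving out each library. The ferritin ratio kept its direction, but without any 1 library its p was 0.0571 by the exact permutation test, the smallest that 3 against 4 allow: 1.26 to 1.38 between ischemic and control microglia and 0.73 to 0.93 between brain and spleen CD11c cells. The brain minus spleen difference was 0.74 with brain replicates 1 and 2 alone and 0.98 with 3 and 4 alone, each at 0.133, the smallest p there; these 2 fits of the ratio were added after seeing the data. Library totals as scaling moved the median of all genes to 0.10, −0.20 and −0.30 and the split of higher against lower calls to 3964 and 2388 (TMM 3213 and 3130), 2140 and 4242 (TMM 2889 and 2945), and 3807 and 7113 (TMM 5097 and 5390) in these 3 comparisons. Cause was not tested for any of these. No paired analysis was possible because the groups of these 3 comparisons share at most 1 number in their titles. Spleen CD11c cells and ischemic microglia share the numbers 11, 13 and 14 but are of different mouse lines, and their same-numbered libraries did not deviate together (correlations of −0.03, −0.02 and −0.05, none best with its own number). Among these 6 libraries, with fits added after seeing the data, edgeR called 10530 genes with the number as a block and 11064 without it, against 11195 in all 16 libraries, and 9 of 10 members in each.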

Other observations

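The RefSeq promoter table (GRCm38.p6, 250 bases before to 50 after the start) matched Fth1, Ftl1, Tfrc, Slc11a1, Spic and Ireb2. On both strands of these windows, 0 of 6 members held the antioxidant response core TGACNNNGC, which 12.4% of all 32851 windows held, or the PU.1 and Spi-C type site GAGGAAGT, which 3.2% held. This says only that these letters are not in these windows.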
